A study of Macaca mulatta with 102 samples.

Results

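Milk cells and milk fat are the fractions of milk from which RNA can be taken without a biopsy, and each was sequenced here from the same milk of rhesus macaques. The comparison used every animal and day with both fractions, which gave 20 of the 34 samples in the series, as 10 pairs from 6 animals, called M1 to M6. Of these pairs, 4 were collected 30 days after birth (M1, M2, M3 and M6) and 6 were collected 90 days after birth (M1 to M6). All 10 milk fat samples and 10 of the 12 milk cell samples were in a pair.

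In lactation, the luminal epithelial cells of the mammary gland synthesize milk proteins, lactose and triglycerides. Their lipid droplets are coated with perilipin 2 (PLIN2) and leave the cell wrapped in its plasma membrane as milk fat globules, some of which enclose a portion of cytoplasm. Milk also contains whole cells, among them shed epithelial cells and leukocytes, which sediment when milk is centrifuged.

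All mothers were prime-aged, multiparous and nursing sons, and they were sedated with ketamine and given oxytocin for milking at both ages. Each also had a single mammary biopsy after milking, at day 30 in M3, M4 and M6 and at day 90 in M1, M2 and M5. The paper reported mastitis, resolved with antibiotics, in a biopsied animal that it did not identify. After centrifugation, the floating fat layer was the milk fat sample and the pellet, washed in PBS, was the milk cell sample. Neither fraction was sorted, so in these bulk samples fewer cells of a type and less RNA per cell cannot be told apart. The paper reported lower RNA integrity in milk fat than in milk cells of macaques, so RNA quality cannot be told apart from fraction. It left out day 30 milk RNA of some animals for insufficient quality, and M4 and M5 have no day 30 milk fat. Poly(A) RNA was sequenced, and transcript levels were given as FPKM, which are counts of fragments divided by transcript length and by the size of the library. Levels of different transcripts can therefore be set side by side per length, except for those shorter than a read.

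Of the 60 technical runs, 58 were nearest by rank correlation to a run of the same sample, and 2 runs of the day 30 milk fat of M6 were nearest to its day 90 milk fat. Relative depth, with the median sample at 1, ranged from 0.737 to 1.62. The day 30 milk fat of M6 stood apart with a summed FPKM of 1380853 against at most 1185165 in the other samples, and the day 30 milk cells of M2 stood apart in several measures given below. Both fractions of an animal carried the same first number in their sample names, which was 2 for M1 and M2, 3 for M3 and M4, and 4 for M5 and M6. Differences within each number are therefore free of it. No annotation at hand tied transcript identifiers to genes, and only 29 transcripts of 25 genes named by the study, with 6 short non-coding transcripts, could be given a name. None of the named transcripts is on a leukocyte marker list used here, so the cell types of the pellet could not be checked. The paper, with gene names, reported immune cell markers as highest in milk cells and minimal in milk fat. CD24, on the luminal epithelium list, was present in every sample of both fractions. In unsorted samples that alone does not identify a cell type.

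Among the named transcripts, milk fat was distinguished most by those of PLIN2, the coat protein of lipid droplets. The 4 PLIN2 transcripts summed to between 2467 and 7263 FPKM in milk cells, with a median of 3351, and to between 26029 and 311416 FPKM in milk fat, with a median of 83495. The fractions did not overlap. The ratio of fat to cells within a pair was lowest in M6 at day 30 (6.14) and highest in M3 at day 30 (126), where PLIN2 took 26.3% of the summed FPKM of milk fat. The lowest share of milk fat was 2.30%, in M5 at day 90. At day 30, the milk cells of M6 had the highest PLIN2 level of all milk cells and the milk fat of the same animal had one of the lowest levels of all milk fat.

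Of the 12 genes on the milk fat globule secretion list, only PLIN2 and FABP3 had a name. All 5 of their transcripts were higher in milk fat, beside 32% of all transcripts tested. The PLIN2 transcripts had a name only because the study listed them among the most abundant in milk fat. That count was therefore largely set in advance. Each of the 4 PLIN2 transcripts was higher in milk fat in all 10 pairs. The log2 difference was 5.03 (SE 0.36) for the transcript at chr15:57864460-57866618 (rheMac2), 4.61 (SE 0.33) at chr15:58240050-58241364, 4.23 (SE 0.31) at chr15:57855543-57859818 and 4.22 (SE 0.33) at chr14:67231622-67231997, with an adjusted p of 0.000634 for each. The share of each transcript in the PLIN2 sum also differed between the fractions. The first of them made up 29.3 ± 1.88% (SD, n = 10) of PLIN2 in milk cells and 40.1 ± 3.84% in milk fat, and the ranges did not overlap. By contrast, the transcript on chromosome 14 made up 46.9 ± 1.94% in milk cells and 37.3 ± 3.25% in milk fat, again with no overlap.

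Over the 6 animals these shares moved by 11.03 ± 3.86 and by -9.95 ± 3.11 percentage points (exact sign-flip permutation test, p = 0.03125 each, the smallest that 6 animals allow; adjusted over 4 transcripts, p = 0.0417). The transcript at 57855543 on chromosome 15 also had a smaller share in milk fat, by -1.55 ± 0.664 points (exact p = 0.03125, adjusted p = 0.0417). The 4 loci carry the same gene name on chromosomes 14 and 15, so reads may have been divided between near-identical copies, and the shares may not be those of separate products.

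**Figure D1:**
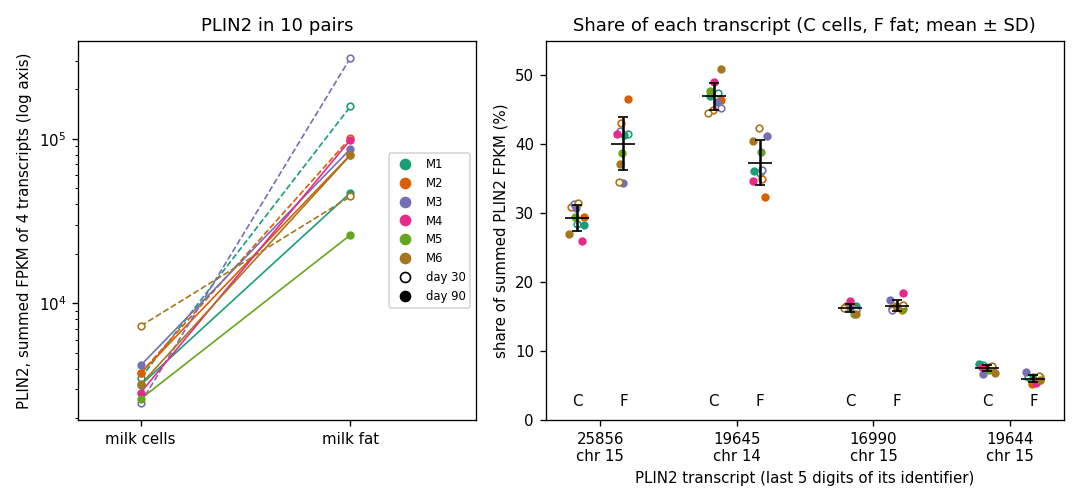
Left, summed FPKM of the 4 PLIN2 transcripts on a log axis in milk cells and milk fat, with a line for each pair of an animal and day (open points and dashed lines, day 30; filled points and solid lines, day 90). Right, the share of each transcript in the PLIN2 sum (%) in milk cells (C) and milk fat (F). Black bars give the mean ± SD of 10 samples. All 10 fat samples lie above all 10 cell samples on the left. On the right, the mean share of the first transcript lies below that of the second in milk cells. In milk fat it lies above, but there the ranges of these transcripts overlap.

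Lactose is made in the Golgi by lactose synthase, a complex of LALBA and the galactosyltransferase B4GALT1, from UDP-galactose supplied by the other enzymes of the list. Of the 13 genes on the lactose synthesis list, 8 could be tested: 6 were higher in milk fat, 0 were lower and 2 did not pass, with a median log2 difference of 0.65. These 8 were the transcripts whose identifiers the study printed, and not a free draw from the list. For the lactose transcripts it plotted, the study had reported differences between fat and cells in these data, except for LALBA and B4GALT. The split is therefore no separate support. Over all 13451 transcripts tested, 32% passed the adjusted p alone as higher in milk fat and 22.4% as higher in milk cells, and the median was 0.07. Among the 4484 transcripts of the highest mean level these shares were 51.7% and 11.9%. None of the 8 reached the 3-fold threshold.

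UGP2, which makes UDP-glucose, ranged from 62.8 to 577 FPKM in milk cells (median 364) and from 292 to 1253 in milk fat (median 748), and its log2 difference was 1.28 (SE 0.26, adjusted p = 0.00573). It was higher in milk fat in all 10 pairs, although the samples overlapped between fractions.

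NME2, a nucleoside diphosphate kinase, rose by a log2 difference of 1.03 (SE 0.25, adjusted p = 0.0109). Smaller differences in the same direction were found for GALK1 and GALT, which act on galactose in the Leloir pathway, at 0.83 (SE 0.12, adjusted p = 0.00183) and 0.62 (SE 0.08, adjusted p = 0.00125). PGM1, which interconverts the phosphates of glucose, differed by 0.67 (SE 0.08, adjusted p = 0.00112), and CMPK1, a pyrimidine nucleotide kinase, by 0.41 (SE 0.10, adjusted p = 0.0114). CMPK1 did not pass without the pairing of fractions by animal (adjusted p = 0.204), and with the day 30 pairs alone neither CMPK1 (0.12, adjusted p = 0.533) nor NME2 (0.41, adjusted p = 0.124) did. All but CMPK1, which was higher in 8 pairs, were higher in milk fat in 10 of 10 pairs.

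The members of lactose synthase itself showed no such difference. LALBA ranged from 59683 to 193091 FPKM in milk cells (median 95811) and from 79511 to 131964 in milk fat (median 109780), and the log2 difference was 0.26 (SE 0.35, adjusted p = 0.536). B4GALT1 was lower in milk fat in 7 of 10 pairs, with a log2 difference of -0.36 (SE 0.15, adjusted p = 0.0683). It passed as lower in 4 of 18 alternatives, among them the day 90 pairs alone, with -0.53 (adjusted p = 0.0165), and its sign turned in the day 30 pairs alone, with 0.11.

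The named members of the milk protein list showed no common direction. Of its 16 genes, 9 could be tested in 10 transcripts: 2 were higher in milk fat, 1 was lower and 7 did not pass, with a median of -0.06. Among all transcripts of the highest mean level, 51.7% were higher in milk fat and 11.9% higher in milk cells. The 9 genes are among those the study listed as most abundant, and not a free draw from the list. FABP3, which carries fatty acids in the cytosol, ranged from 9943 to 26411 FPKM in milk cells (median 18136) and from 28270 to 47156 in milk fat (median 31002), so that the fractions did not overlap. Its log2 difference was 0.98 (SE 0.28, adjusted p = 0.0194), and it was higher in milk fat in all 10 pairs. It passed in 13 of 18 alternatives. Those in which it did not were the day 30 pairs alone (0.42, adjusted p = 0.166), without M2 (adjusted p = 0.0744), without M5 (adjusted p = 0.0506), a pseudocount of 0.1 (adjusted p = 0.0827) and no filter on low values (adjusted p = 0.869).

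GLYCAM1, a mucin-like glycoprotein of milk, was higher in milk fat by 0.79 (SE 0.28, adjusted p = 0.0421) in 8 of 10 pairs, but passed the test in only 8 of 18 alternatives. SPP1, the secreted phosphoprotein osteopontin, was lower in milk fat by -0.63 (SE 0.17, adjusted p = 0.0148). Its FPKM ranged from 1408 to 4332 in milk cells (median 2639) and from 771.8 to 2705 in milk fat (median 1854), and it was lower in fat in 9 of 10 pairs. Without the pairing of fractions by animal, neither passed (adjusted p = 0.0554 for GLYCAM1 and 0.143 for SPP1). SPP1 also did not pass without M1 (adjusted p = 0.0536) or without the filter on low values (adjusted p = 0.108).

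The main transcript of CSN2, beta-casein, had the highest mean level of the named transcripts in both fractions, followed by LALBA and by LGB2, a whey beta-lactoglobulin. The CSN2 transcript ranged from 272092 to 494120 FPKM in milk cells (median 397058) and from 199149 to 363291 in milk fat (median 290338). It was lower in milk fat in all 10 pairs, but its log2 difference of -0.36 (SE 0.34, adjusted p = 0.385) did not pass. The fit shares variance between transcripts by their level, and without that trend the same difference passed (adjusted p = 0.0176). CSN3, kappa-casein, had a log2 difference of -0.21 (SE 0.26, adjusted p = 0.511). Neither the second CSN2 transcript (0.01), LGB2 (0.24), nor the antibacterial proteins LYZ (-0.14) and LTF (-0.13) passed.

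**Figure D2:**
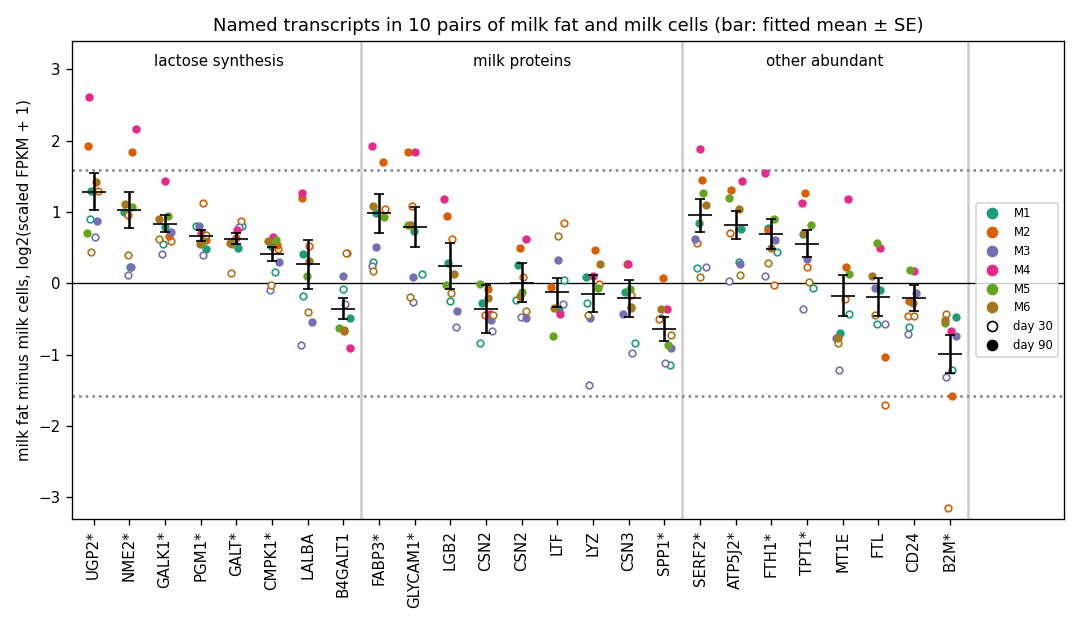
Difference between milk fat and milk cells on the log2(scaled FPKM + 1) scale for named coding transcripts other than PLIN2, with a point for each of 10 pairs (open, day 30; filled, day 90), the fitted mean ± SE in black, an asterisk for an adjusted p under 0.05 and dotted lines at 3-fold. Of the first 8 transcripts, those of lactose synthesis, 6 lie above 0 and pass, while LALBA, B4GALT1 and the caseins do not pass.

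Among 8 other abundant transcripts, 4 were higher in milk fat, 1 was lower and 3 did not pass, beside the shares of 51.7% and 11.9% among all transcripts of the highest mean level. SERF2, a small protein linked to aggregation, was higher by 0.95 (SE 0.23, adjusted p = 0.0104) and ATP5J2, a subunit of mitochondrial ATP synthase, by 0.81 (SE 0.20, adjusted p = 0.0116), each in 10 of 10 pairs. With the day 30 pairs alone they differed by 0.26 and 0.27 and did not pass (adjusted p = 0.207 and 0.236), nor did they without the filter on low values (adjusted p = 0.0817 and 0.0583). FTH1, the heavy chain of ferritin, was higher by 0.69 (SE 0.21, adjusted p = 0.0238). It did not pass with the day 30 pairs alone (0.19, adjusted p = 0.324), without M1 (adjusted p = 0.0608), without M5 (adjusted p = 0.0689) or without the filter on low values (adjusted p = 0.2002). TPT1, a translationally controlled protein, was higher by 0.56 (SE 0.19, adjusted p = 0.0395), passed in 9 of 18 alternatives, and had a difference of -0.06 in the day 30 pairs alone. FTL, the ferritin light chain, MT1E, a metallothionein, and CD24 had log2 differences of -0.19, -0.17 and -0.20 and did not pass.

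B2M, the light chain of MHC class I, was lower in milk fat. Its FPKM ranged from 2188 to 10805 in milk cells (median 2582) and from 1166 to 2003 in milk fat (median 1517), with no overlap. The log2 difference was -0.99 (SE 0.27, adjusted p = 0.0163), with a lower level in fat in 10 of 10 pairs. It was -1.60 in the animals of name number 2, -0.84 in those of number 3 and -0.52 in those of number 4, and the day 30 milk cells of M2 had the highest level, at 10805 FPKM against 4849 in the next. Without M2 the difference was -0.71 (adjusted p = 0.0239). B2M did not pass with the day 30 pairs alone (-1.54, adjusted p = 0.0503) or without the filter on low values (adjusted p = 0.0955).

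Of the 6 short non-coding transcripts, 1 was lower in milk fat, at chr2:123178536-123178615, by -1.64 (SE 0.39, adjusted p = 0.0106) in 10 of 10 pairs. It did not pass without the filter on low values (adjusted p = 0.05603). The other 5 had differences of 0.84 to 1.54 and did not pass. Their sum ranged from 7334 to 35367 FPKM in milk cells and from 12513 to 352814 in milk fat. The highest value was the day 30 milk fat of M6, and the next was 63402. Without the day 30 pair of M6 the 5 differences were 0.44 to 1.03. The tie of these 6 to the names in the study was less certain than that of coding transcripts. The paper reported that the non-coding RNAs among its most abundant transcripts had homology to human ribosomal RNAs.

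Across all transcripts, an adjusted p under 0.05 with more than 3-fold change called 82 of 13451 as higher in milk fat (0.61%) and 155 as higher in milk cells (1.15%). Apart from PLIN2, those higher in fat were of low level: the other 78 summed to between 157.2 and 319.0 FPKM in milk cells (median 245.9) and to between 648.1 and 1974 in milk fat (median 1019). The 155 higher in cells summed to between 2632 and 18088 FPKM in milk cells (median 4387) and to between 383.7 and 2596 in milk fat (median 1248). All 82 and 151 of the 155 had the same direction in all 6 animals, against 6937 of all 13451 tested. The calls were made on these same animal values, so this agreement is no separate support.

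On the milk cell side, the number of calls fell most when M2 was left out. Of the 155 transcripts higher in milk cells, 75 had their highest milk cell level in the day 30 sample of M2, which also held the highest sum, 18088 FPKM against 9965 in the next. The same count over all 13451 tested is not given here. That sample also had the most transcripts at an FPKM of at least 1 (15075), so the 75 alone do not set the calls apart. Without M2, 98 transcripts were called higher in milk cells, of which 97 were among the 155, and 63 were called higher in milk fat, all of them among the 82. The 10 milk cell and 10 milk fat samples did not overlap for 55 of the 155 and for 41 of the 82, against 783 of all 13451 tested. The calls were made on these same samples, so this excess is no separate support either. Without the day 30 pair of M6, 92 were called higher in milk fat and 169 higher in milk cells.

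Of the 20 largest differences in each direction that held in all 10 pairs, the 4 of PLIN2 were the only ones with a name. The first unnamed transcript higher in milk fat was ENSMMUT00000029767, at chr11:46254793-46314039, with 0.0000145 to 2.89 FPKM in milk cells (median 0.00132) and 9.65 to 85.8 in milk fat (median 29.3). Its log2 difference was 4.45 (SE 0.33, adjusted p = 0.000634), and 6.85 with a pseudocount of 0.1. The next, ENSMMUT00000043353, at chr9:6039743-6075747, had at most 1.09 FPKM in milk cells and 1.18 to 51.3 in milk fat (median 16.5), a log2 difference of 3.65 (SE 0.51, adjusted p = 0.00168), and of 5.95 with a pseudocount of 0.1.

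In the other direction, ENSMMUT00000019492, at chr1:185383238-185392409, ranged from 7.78 to 58.6 FPKM in milk cells (median 33.7), and was listed at 0.0115 or less in every milk fat sample. Its log2 difference was -4.78 with a pseudocount of 1 and -8.03 with 0.1, so the size of all 3 depends on that choice. ENSMMUT00000026449, at chr14:8929586-8929753, ranged from 30.8 to 283 FPKM in milk cells (median 94.5) and from 1.55 to 13.9 in milk fat (median 4.82), a log2 difference of -4.27 (SE 0.35, adjusted p = 0.000677). These samples did not overlap for any of the 4 transcripts.

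Many calls were of 1 transcript among several at a locus. FPKM were estimated by dividing reads between overlapping transcripts, so FPKM were also summed over all transcripts that overlap on the genome, which can join neighbouring genes. Of the 10062 summed loci tested, 11 were called higher in milk fat (0.109%) and 85 higher in milk cells (0.845%). Of the 82 transcripts higher in fat, 71 overlapped another transcript (86.6%), beside 64.6% of all transcripts tested. The locus of 2 of these 71 was called as well. Median log2 differences were 1.94 for the transcripts and 0.54 for their loci. The adjusted p alone was passed in the same direction by the loci of 52, and the loci of 6 had the opposite sign, 2 of them past the adjusted p. Of the 155 higher in cells, 114 overlapped another (73.5%, nearer to the share of all tested), and the loci of 39 were called, with medians of -1.92 and -0.50. Here the loci of 72 passed the adjusted p in the same direction, and those of 30 had the opposite sign, 17 of them past the adjusted p.

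For ENSMMUT00000019492 the locus differed by -0.05 (adjusted p = 0.654) and for ENSMMUT00000043353 by 0.12 (adjusted p = 0.33). ENSMMUT00000026449 overlaps no other transcript, and the locus of ENSMMUT00000029767 differed by 0.95 (adjusted p = 0.00243). Of the 11 loci higher in fat, 4 were PLIN2. The largest of the other 7 lay at chr14:116740082-116777631, with 2.81 (SE 0.32, adjusted p = 0.00064).

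Loci higher in milk cells included chr20:130416-137332, at -4.06 (SE 0.38, adjusted p = 0.000478), and chr5:55942657-55945811, where both transcripts were called and the locus differed by -3.80 (SE 0.46, adjusted p = 0.000782). A locus on chromosome 9, chr9:67925094-67938550, differed by -3.54 (SE 0.38, adjusted p = 0.000579). Its transcript reached 762 FPKM in the day 30 milk cells of M2, while the median milk cell sample had 13.5 and the highest milk fat sample 7.69. These 3 loci and the pairs below were picked after their values were seen.

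Among the 237 called transcripts, 23 pairs overlapped on the genome, and in 11 of them one was called higher in milk fat and the other higher in milk cells. Among the other 12 pairs, 11 were both higher in milk cells and 1 both higher in milk fat. In 9 of the 11 opposite pairs the summed level of both changed by less than 2-fold, and the share of the transcript higher in fat did not overlap between fractions in 8. These pairs were picked for opposite calls of more than 3-fold. A shift in share and a partly cancelled sum were therefore largely set in advance. The same counts over all overlapping pairs are not given here. Opposite pairs numbered 11 without scaling and without the animal block, 5 without M2 and 7 without M4.

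A pair on chromosome 10 held the only transcript of the 22 with a mean of at least 100 FPKM in a fraction. The transcript at chr10:29631676-29682758 was given at 7.89 to 34.2 FPKM in milk cells and at 60.5 to 214 in milk fat, with no overlap and a log2 difference of 2.38 (SE 0.22, adjusted p = 0.000849). The transcript at chr10:29631681-29682808, which has nearly the same ends, was given at 15.5 to 82.8 FPKM in milk cells and at 0.478 to 30.7 in milk fat, a log2 difference of -2.61 (SE 0.50, adjusted p = 0.00485). The share of the first in their sum was 39.0% in milk cells (19.3 to 62.5%) and 90.7% in milk fat (76.9 to 99.8%). Their sum was itself higher in fat, by 1.14 (SE 0.26 over 6 animals).

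On chromosome 6, between 135175200 and 135352523, the transcript higher in fat rose from 7.87% of the pair in milk cells (1.69 to 19.3%) to 73.1% in milk fat (23.2 to 100%). Its sum with the other transcript differed by 0.23 (SE 0.10). On chromosome 7, between 93561352 and 93665310, the share rose from 21.04% (2.15 to 41.2%) to 86.0% (57.4 to 100%) and the sum differed by 0.55 (SE 0.19). Values near 0 or 100% reflect that one transcript of the pair was listed near 0.

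**Figure D3:**
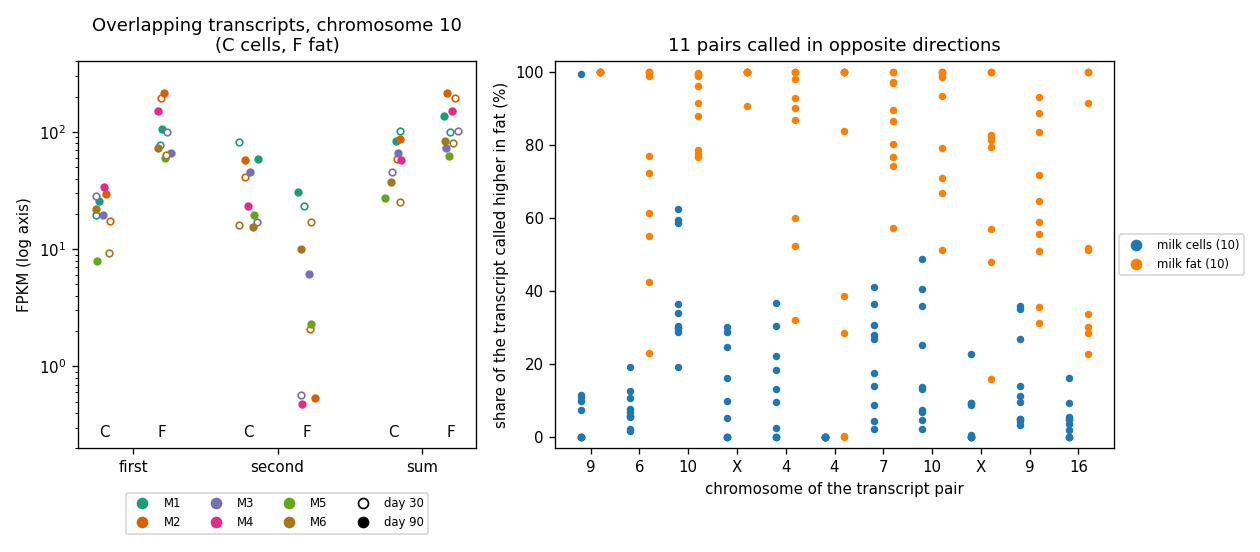
Left, FPKM on a log axis of 2 overlapping transcripts on chromosome 10, the first called higher in milk fat and the second higher in milk cells, and of their sum, in 10 milk cell (C) and 10 milk fat (F) samples (open, day 30; filled, day 90). Right, the share (%) of the transcript called higher in fat in the sum of each of 11 opposite pairs, blue for milk cells and orange for milk fat; fat lies above cells in most pairs, and 3 pairs overlap.

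The direction of the difference changed with the length of the locus on the genome, introns included, a pattern noticed in these data. Median log2 differences were 0.44 for 898 transcripts at loci of 201 to 1000 bases, 0.28 for 1895 at 1001 to 5000, 0.20 for 3989 at 5001 to 20000, -0.08 for 5076 at 20001 to 100000, -0.18 for 1186 at 100001 to 300000 and -0.175 for 158 over 300000. At loci of 201 to 1000 bases 54.3% were higher in milk fat and 6.46% higher in milk cells, and at 100001 to 300000 bases these were 16.2% and 35.7%. Loci up to 200 bases (n = 249) had a median of -0.07. Whether the lower RNA integrity of milk fat had a part in this pattern was not tested.

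Between loci of 201 to 1000 bases and those over 100000 bases, the median differed by 0.61 ± 0.35 (SD, n = 6 animals), with a range of 0.16 in one animal to 1.19 in another, and was above 0 in 6 of 6. No test is given, since the classes were chosen from the same values. With the day 30 pairs alone it was 0.19, and without the filter on low values 0.02. The order also followed the level of transcripts: the median was -0.14 among the 4484 transcripts of the lowest mean level, 0.03 among the 4483 of middle level and 0.35 among the 4484 of the highest. Within the highest it fell from 0.66 at 201 to 1000 bases to -0.02 at 100001 to 300000, but was 0.23 for the 26 transcripts over 300000, and within the lowest it fell from 0.16 to -0.23.

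**Figure D4:**
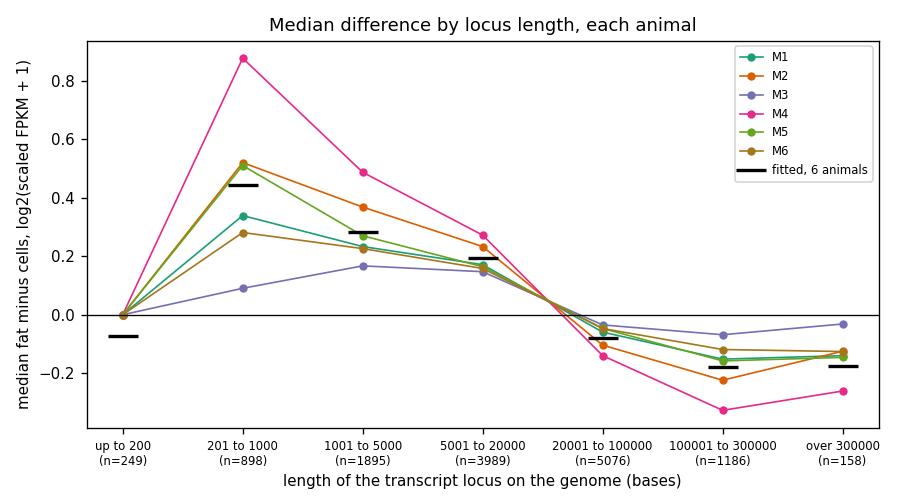
Median difference between milk fat and milk cells on the log2(scaled FPKM + 1) scale by class of locus length in bases, with a line for each of 6 animals and a black bar for the fitted median. Every animal lies above 0 from 201 to 20000 bases and below 0 over 20000 bases.

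Milk fat RNA was spread over more transcripts. The effective number of transcripts, the exponential of the Shannon entropy of FPKM shares, ranged from 29.7 to 154.8 in milk cells and from 57.1 to 170.9 in milk fat. Averaged over days, it was 54.2 ± 33.8 in milk cells and 83.2 ± 31.7 in milk fat (SD, n = 6 animals), and the difference of 28.99 ± 10.9 was above 0 in 10 of 10 pairs (exact sign-flip permutation test, p = 0.03125, the smallest possible). Without the transcripts of CSN2 and PLIN2, left out once their values were known, the direction was lost, with -10.3 ± 96.3 and 6 of 10 pairs higher in fat (exact p = 0.844). The sign of this mean turned on single animals: M2 differed by -164.5, and the mean was 20.5 without M2 and 1.68 without M4.

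More transcripts were detected in milk cells than in milk fat at low levels. At an FPKM of at least 1 the numbers were 13066 ± 1212 and 12263 ± 581, a difference of -803 ± 942 (exact sign-flip permutation test, p = 0.09375). At an FPKM of at least 0.1 milk fat had fewer in 10 of 10 pairs, by -1400 ± 771 (exact p = 0.03125), and at 10 the difference was 91.0 ± 352 (exact p = 0.5). The 2 milk cell samples of M2 had the most at an FPKM of at least 1, with 15075 at day 30 and 14865 at day 90.

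**Figure D5:**
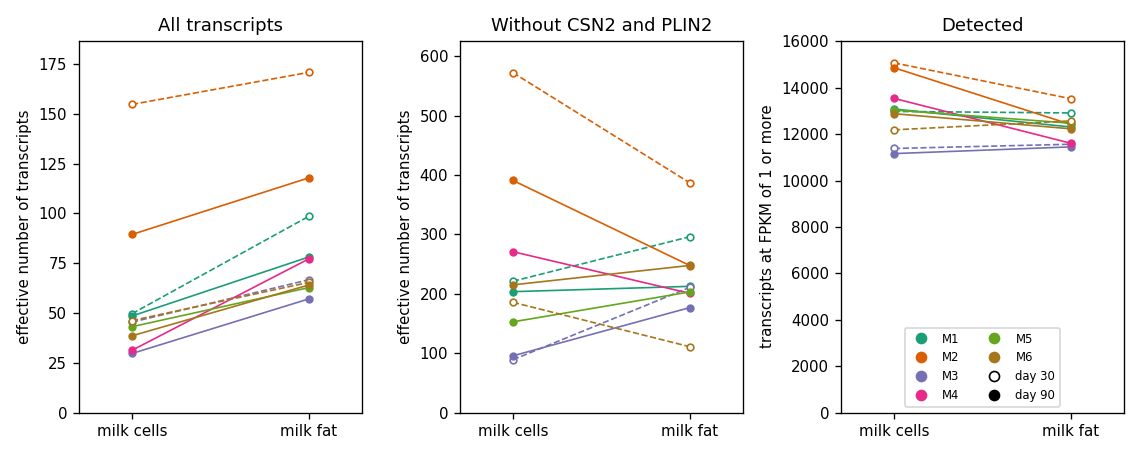
Effective number of transcripts over all transcripts (left) and without CSN2 and PLIN2 (middle), and number of transcripts with an FPKM of at least 1 (right), with a line for each of 10 pairs (dashed and open, day 30; solid and filled, day 90). All lines rise on the left, while on the middle panel 6 rise and 4 fall.

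The spread between animals at day 90 was similar in both fractions over all transcripts, with a median SD of log2 values of 0.31 in milk cells and 0.28 in milk fat.

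Whether the difference between fractions changed from day 30 to day 90 was tested in the 4 animals with both days. M3 and M6 were biopsied after milking at day 30, and M1 and M2 at day 90. Only the day 90 milk of M3 and M6 thus followed a biopsy, so day and biopsy cannot be told apart in them. No transcript passed (limma, 0% of 13451, lowest adjusted p = 0.0899), although 3694 had an unadjusted p under 0.05 (27.5%). PLIN2 sums in milk fat were lower at day 90 than at day 30 in M1 (157717 and 46985), M2 (101648 and 80106) and M3 (311416 and 86884), and higher in M6 (44612 and 79642). TPT1 was nearest to the threshold among named transcripts, with -0.05 at day 30 and 0.75 at day 90 (adjusted p = 0.0899), followed by SERF2 with 0.27 and 1.01 (adjusted p = 0.0899). Without M3, 1206 transcripts passed, while 0 passed without M1, M2 or M6.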

How the data were processed

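The deposited values are FPKM, made by the authors from trimmed single 100-base reads that were aligned to rheMac2 by TopHat, with Cufflinks quantifying the transcripts of Ensembl release 67. FPKM keep no read counts per sample and transcript, so no counting intervals were made. The 3 technical runs of a sample were averaged, and 6 columns that match no described sample were not used. Relative depth came from the spacing of low FPKM of the 15364 transcripts that overlap no other.

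Each sample was scaled by its median ratio to the geometric means of transcripts above 0 in all samples, and log2(scaled FPKM + 1) was tested, so fold changes of low transcripts are understated. Transcripts with a mean of at least 1 FPKM over the 20 samples were tested. Within an animal and fraction, both days were averaged on the log2 scale, and limma 3.58.1 in R 4.3.3 was fitted with animal and fraction as terms and a variance trend, two-sided, with Benjamini-Hochberg adjustment. Calls required more than 3-fold change besides an adjusted p under 0.05. Differences are milk fat minus milk cells. The change with day was fitted as the difference of differences in the 4 animals with both days. Single values were tested over animals with two-sided exact sign-flip permutation tests, which with 6 animals give no p below 0.03125. The scripts were tested on simulated data. Python 3.11.15 with numpy 2.4.6, pandas 2.3.3 and matplotlib 3.10.9 was used for the other steps.

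Fractions were paired by animal and day from the labels: the deviations of cells and fat from their group means correlated by 0.161 to 0.496 (mean 0.341) within the 10 pairs. Each animal is 1 replicate, and its runs and days are not further replicates.

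Transcripts were named only by identifiers printed by the study (8) or by matching 3 mean FPKM per transcript (27), 6 of which are short non-coding transcripts with looser matches. The text gives these, their lists, and the 2 unnamed transcripts with the largest difference in each direction among those called and of 1 direction in all 10 pairs. Of 27 gene lists, 22 had no named transcript, among them every leukocyte list, and were not analysed here. The members, lists and tests were chosen with earlier results of these data known. Alternatives covered scaling, pseudocount, filter, block, trend, days, summed loci and each animal left out. 1 transcript is not reported here. No genome sequence was used.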

Additional observations from a re-analysis of the deposited data

Results flagged for a closer look

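In 96 groups of 10 samples, the highest or lowest sample was compared with its nearest neighbour, and 31 values stood apart by Dixon's test. For normally distributed values chance gives about 1 in 20 groups. The values were not log-transformed, and all 31 were the highest of their group, so no excess over chance is shown. The groups are not independent, since the 4 PLIN2 transcripts, their sum and the summed calls share values, and no difference between days met the rule.

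The day 30 milk fat of M3 had the highest PLIN2 transcripts of all milk fat, with 130490 FPKM at 57864460 on chromosome 15 (next 65456), 113008 on chromosome 14 (next 56409), 49791 at 58240050 (next 25947) and 18127 at 57855543 (next 9905). Their sum was 311416 (next 157717), and the sum of transcripts called higher in milk fat was 312965. The day 30 milk cells of M6 had the highest PLIN2 of all milk cells, with 2287, 3232, 1178 and 566 FPKM for the same 4 transcripts, a sum of 7263 (next 4181), and 7493 for the transcripts called higher in milk fat. MT1E was also highest in that sample, at 4477 FPKM (next 2525).

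The day 30 milk fat of M6 had the highest short non-coding transcripts, with 91716, 87651, 107391, 42046 and 24011 FPKM, a sum of 352814 (next 63402), and the highest summed FPKM of milk fat, 1380853. It was listed at 0.0115 FPKM for ENSMMUT00000019492 (next 3.682e-05), both near 0.

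The day 30 milk cells of M2 had the highest B2M (10805 FPKM), FTL (11875 FPKM, next 7071) and short non-coding transcript at 23618907 on chromosome 20 (6511 FPKM, next 3036) of all milk cells. In this sample the effective number of transcripts was 154.8 (next 89.5), and the transcripts called higher in milk cells summed to 18088 FPKM (next 9965). PGM1 was highest in the day 30 milk fat of M2, at 55.6 FPKM (next 41.4).

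LTF was highest in both fractions of M5 at day 90, with 13294 FPKM in milk cells (next 6783) and 7988 in milk fat (next 4918). ENSMMUT00000029767 was highest among milk cells in M1 at day 90, at 2.89 FPKM (next 1.42). The day 30 milk fat of M1 had a relative depth of 1.62 (next 1.10).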

How the results depend on the processing

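The 82 and 155 calls became 224 and 560 with a pseudocount of 0.1, 44 and 87 with a mean FPKM of at least 5, and 11 and 85 when FPKM were summed over overlapping loci. With each animal left out in turn they ranged from 61 to 116 and from 98 to 208. Without the replicate block they were 82 and 141, and 222 of the 237 calls were shared. Of the named transcripts, CMPK1, GLYCAM1 and SPP1 no longer passed without that block, and no other call of a named transcript changed. The counts past the adjusted p alone, 4307 and 3008, became 2033 and 1338 with the day 30 pairs alone. At a mean FPKM of at least 5 the second became 1125, where fewer transcripts were tested. Each animal left out gave 3529 to 4080 and 2305 to 2847. Elsewhere the cause of a change was not tested.

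For day 90 against day 30, 0 transcripts passed in all alternatives but one, and each animal left out gave 0 to 1206. The difference in transcripts detected was -1400 at an FPKM of at least 0.1 and turned to 91.0 at 10. The difference in the effective number of transcripts, with each animal left out, was 25.6 to 30.9, where 5 animals cannot give an exact p below 0.0625. Without CSN2 and PLIN2 it turned to -10.3, and was then -32.7 to 20.5 with each animal left out, above 0 without M2 (20.5) and without M4 (1.68).

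Over 701 values of 39 transcripts named in the text under the alternatives, 636 kept direction and side of the threshold, 42 no longer passed, 8 newly passed and 15 changed sign. No transcript past the threshold in the fit as reported changed sign except TPT1, with -0.061 in the day 30 pairs. The others were the second CSN2 transcript (-0.057 unscaled, -0.051 at the 75th percentile, -0.040 with every pair as its own value, -0.26 at day 30, -0.36 summed over its locus, and -0.12 to 0.11 over the alternatives that left out an animal), LGB2 (-0.11), LALBA (-0.25), LTF (0.30) and B4GALT1 (0.11) with the day 30 pairs, LYZ with the day 90 pairs (0.072) and without M3, and FTL without M2. With each animal left out, LYZ ranged from -0.21 to 0.017 and FTL from -0.34 to 0.05.

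Opposite pairs numbered 5 to 31 over the alternatives, and 5 to 13 with an animal left out. FPKM give no depth per transcript, 6 animals limit every exact test, and most transcripts have no gene name here.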

Other observations

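Chromosomes differed in their median difference between fractions. The median log2 difference was highest on chromosome 19 (0.35, 812 transcripts tested) and chromosome 20 (0.23, 591 transcripts), and lowest on chromosomes 5 (-0.10, 458 transcripts) and 17 (-0.10, 243 transcripts). Chromosome 1 held 31 of the 155 transcripts called higher in milk cells, 2.06% of the 1504 tested there, against 1.15% over all chromosomes. On chromosome 15, 3 of the 4 transcripts called higher in milk fat were PLIN2, and 1 of 594 was called higher in milk cells.

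Overlapping transcripts past the adjusted p alone gave 1341 pairs, of which 375 were in opposite directions. Of the called transcripts, 86.6% of those higher in milk fat and 73.5% of those higher in milk cells overlapped another transcript, against 64.6% of all tested. These shares were computed after the values were seen and carry no test.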
